A study of Mus musculus with 3 samples.

Results

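A set of 10 genes that mark endothelial cells by their junctions, surface and identity was followed in mouse embryoid bodies of 2 genotypes. They were Pecam1, Cdh5, Cldn5, Esam, Emcn, Plvap, Eng, Mmrn2, Sox18 and Egfl7, chosen by gene name among non-control probes. All 10 were on the array, read by 11 of 39429 probes, and all 11 probes were well above background in both genotypes on all 3 arrays. All 10 therefore entered the test of 19667 genes. Embryoid bodies are floating aggregates of differentiating embryonic stem cells, here kept for 10 days in low-attachment plates with no LIF, the cytokine that maintains self-renewal. The control was wild type. The mutant, Dido3deltaCT+HADidoNT, carries a C-terminally truncated Dido3 protein and overexpresses an HA-tagged N-terminal region common to the Dido isoforms, which holds the PHD domain. No promoter for that construct and no number of clones is given in the sources used here. By its title the study asks how Dido regulates self-renewal and differentiation of embryonic stem cells. The labels give 3 biological replicates per genotype, hybridised as 3 mutant and wild-type pairs on 2-colour arrays. The mutant RNA carried Cy5 on array 2 and Cy3 on the other arrays.

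Endothelial cells line vessels and are joined to one another by adherens junctions, built on VE-cadherin, and by tight junctions, built on claudins and on immunoglobulin-like adhesion molecules. In the embryo they arise from mesoderm that receives VEGF signals, and transcription factors of the ETS and SOXF families switch on their genes. In embryoid bodies the same programme forms vessel-like networks next to blood precursors. Some of these genes are not limited to endothelium: PECAM1 is also found on embryonic stem cells, platelets and leukocytes, and endoglin on other mesodermal and blood cells. RNA of whole embryoid bodies was measured, so a difference in the number of endothelial cells and one in RNA per endothelial cell cannot be told apart.

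ETS factors bind a GGAA core, and promoter windows were searched for AGGAAG and CGGAAG on both strands; a stretch of letters cannot match both. The RefSeq table held windows for 4 of the 10 members, Cldn5, Emcn, Eng and Egfl7. They are shown because they set a gene with a high mean ratio, Emcn, beside 3 with mean ratios near 0. Each is the 250 bases before the transcript start, with matches in capitals; Egfl7 had 3 starts and the first is printed.

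Emcn, GRCm38.p6 chr3:137340828-137341077, plus strand: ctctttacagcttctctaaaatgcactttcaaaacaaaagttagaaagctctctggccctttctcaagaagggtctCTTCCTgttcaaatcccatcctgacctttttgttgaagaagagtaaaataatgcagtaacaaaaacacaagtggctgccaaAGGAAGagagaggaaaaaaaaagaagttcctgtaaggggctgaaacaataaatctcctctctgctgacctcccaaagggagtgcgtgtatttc

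Eng, GRCm38.p6 chr2:32646345-32646594, plus strand: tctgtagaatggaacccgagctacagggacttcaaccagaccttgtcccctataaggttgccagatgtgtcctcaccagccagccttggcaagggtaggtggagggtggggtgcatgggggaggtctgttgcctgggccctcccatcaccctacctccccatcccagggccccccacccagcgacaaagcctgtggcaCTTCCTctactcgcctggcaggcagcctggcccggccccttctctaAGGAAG

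Egfl7, GRCm38.p6 chr2:26580833-26581082, plus strand: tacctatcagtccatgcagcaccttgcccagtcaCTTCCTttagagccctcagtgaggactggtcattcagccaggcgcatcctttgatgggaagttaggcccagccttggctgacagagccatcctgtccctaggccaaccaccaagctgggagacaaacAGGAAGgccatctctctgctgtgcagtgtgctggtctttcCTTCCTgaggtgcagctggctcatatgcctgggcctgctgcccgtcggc

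Cldn5, GRCm38.p6 chr16:18776597-18776846, plus strand: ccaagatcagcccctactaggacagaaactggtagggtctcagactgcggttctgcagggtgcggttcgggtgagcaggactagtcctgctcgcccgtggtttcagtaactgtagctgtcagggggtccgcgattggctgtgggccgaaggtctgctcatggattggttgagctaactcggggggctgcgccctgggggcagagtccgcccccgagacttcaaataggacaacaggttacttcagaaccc

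AGGAAG was found 2 times in the Emcn window, 2 times in the Eng window, 3 times in the printed Egfl7 window and 0 times in the Cldn5 window. CGGAAG was in none of these 4 windows. The Egfl7 windows not printed held AGGAAG 1 time and 0 times. Of 32851 such windows in the table, 29.5% held AGGAAG and 39.2% held either motif. A motif of the SOX family, ACAAAG, was in the Eng window and in 16.5% of all windows, while ACAATG was in none of the 4 and in 10.7% of all. The GATA motif AGATAA and the TATA box TATAAA were in none of the 4 either, against 9.99% and 12.4% of all windows. Emcn and Eng, with mean ratios of 1.66 and 0.16, held AGGAAG equally often. Neither gene passed, and the difference between their ratios was not tested. A match describes the letters of the window and not binding.

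The members did not move together. The mean log2 ratio of mutant over wild type ran from -0.80 for Esam to 1.81 for Sox18 and Mmrn2, and 3 genes, Sox18, Mmrn2 and Emcn, stood between 3.16-fold and 3.50-fold higher in the mutant by their means. The genes for VE-cadherin and endoglin, Cdh5 and Eng, had mean ratios of -0.03 and 0.16. None of the 10 passed the limma test after Benjamini-Hochberg adjustment over all 19667 genes, against a background of 1.65% of genes called, 1.27% higher and 0.386% lower in the mutant. At an unadjusted p under 0.05 there were 5 members, 4 of them higher and 1 lower, against 19.9% of all genes. The median of the 10 was 0.20, beside -0.01 over all genes tested.

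**Figure D1:**
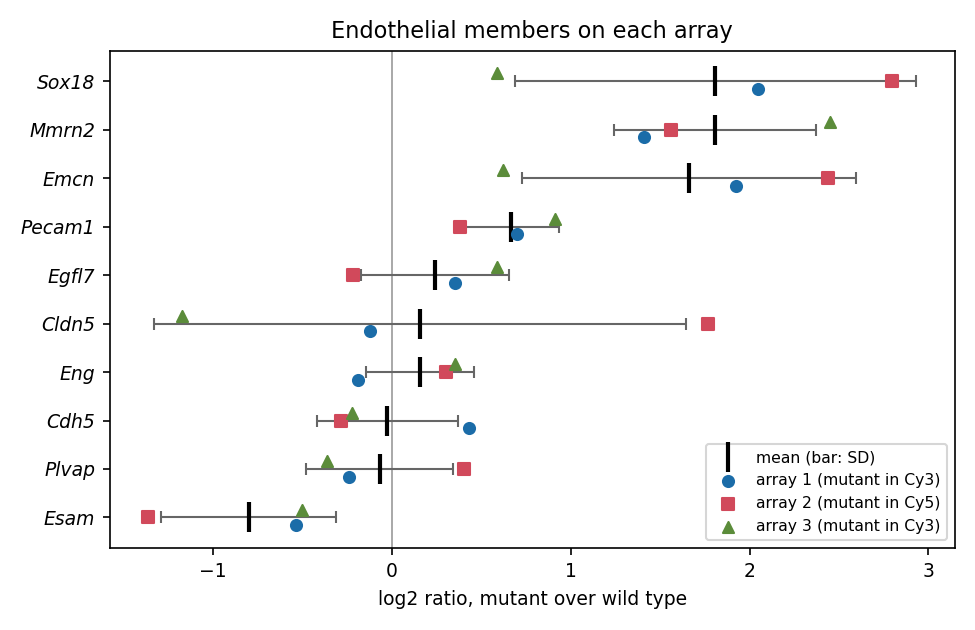
Log2 ratio of mutant over wild type (horizontal axis) for each of the 10 genes, with 1 point per array, the mean as a tick and the SD over 3 arrays as a bar. Sox18, Mmrn2, Emcn and Pecam1 are to the right of 0 on every array and Esam to the left, while Cldn5 runs from -1.17 to 1.77.

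There were 4 members higher in the mutant on all 3 arrays, and 1, Esam, was lower on all 3. The share of all genes higher on every array was 22.5%, and 19.1% were lower on every array. By the normalized brightness of the 2 channels, the lowest mutant sample was above the highest wild-type sample for 4 members, Pecam1, Emcn, Mmrn2 and Sox18, which 13% of all genes also showed. No member had all mutant samples below all wild-type samples, against 8.58% of all genes, and the other 6 overlapped between genotypes. Brightness is given below in normalized intensity units for the genotypes within 1 probe and is not comparable between probes. The exon or untranslated region under each probe was not assigned, as no mm9 annotation was used.

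Sox18 encodes a SOXF transcription factor of early endothelium and was read at chromosome 2, 181404789 to 181404848 (mm9, minus strand). Mutant intensities were 526, 1612 and 554 on arrays 1, 2 and 3, and wild-type intensities were 128, 232 and 369. All mutant samples were above all wild-type samples, and the gap was narrowest on array 3, where the wild type was brightest. The log2 ratios were 2.04, 2.79 and 0.59, with a mean of 1.81 ± 1.12 (SD, n = 3; 3.50-fold), and the adjusted p was 0.129 in limma. The probe is 985 kilobases from the nearest probe of Dido1, the gene altered in the mutant, on the same chromosome. Of 13 tested genes with probes within 250 kilobases of it, the median ratio was 0.06 and 1 passed, a transcript the file names BQ939345, at 2.22 ± 0.11 (adjusted p = 0.0354 in limma), which is named here because its value was seen. Tcea2, the neighbour 14412 bases away, read -1.27 ± 0.47 and did not pass.

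Mmrn2 encodes multimerin 2, a glycoprotein of the endothelial extracellular matrix, and was read at chromosome 14, 35216855 to 35216914 (mm9). The mutant read 812, 1749 and 1617 units on arrays 1, 2 and 3 against 305, 594 and 296 in wild type. No sample of one genotype reached the range of the other. The ratios of 1.41, 1.56 and 2.45 gave a mean of 1.81 ± 0.56 (3.50-fold), and every array was at least 2-fold higher, as 3.1% of all genes were. It had the smallest adjusted p of the members, 0.0566 in limma, with a 95% interval of 1.08 to 2.53 for its log2 ratio. With the log ratio of the scanner software it was 1.99 and passed (adjusted p = 0.0466 in limma), and over the alternatives its adjusted p ran from 0.0221 to 0.250.

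Emcn encodes endomucin, a mucin-like sialoglycoprotein of venous and capillary endothelium that limits leukocyte adhesion. Its probe lies on chromosome 3 at 137086389 to 137086448 (mm9). Mutant intensities were 587, 683 and 354 and wild-type intensities 154, 126 and 230 on arrays 1, 2 and 3. The genotypes did not overlap, and array 3 had the dimmest mutant and the brightest wild-type sample. The ratios were 1.93, 2.44 and 0.62, with a mean of 1.66 ± 0.94 (3.16-fold, adjusted p = 0.114 in limma). Emcn and Sox18 thus had their highest value on array 2 and their lowest on array 3, while Mmrn2 was highest on array 3.

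Pecam1 encodes CD31, an immunoglobulin-family receptor that holds endothelial cells together at their borders. The probe is on chromosome 11 at 106540864 to 106540923 (mm9, minus strand). The mutant read 673, 618 and 625 units and the wild type 414, 475 and 332. These ranges were apart but close. The mean ratio of 0.66 ± 0.27 (1.58-fold, adjusted p = 0.179 in limma) had a 95% interval of 0.13 to 1.20. Without array 2 it was 0.81 and passed (adjusted p = 0.0366 in limma), but then both arrays carried the mutant in Cy3. In that fit 5082 of the 19667 genes passed, against 325 as reported, so passing there does not single out Pecam1.

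**Figure D2:**
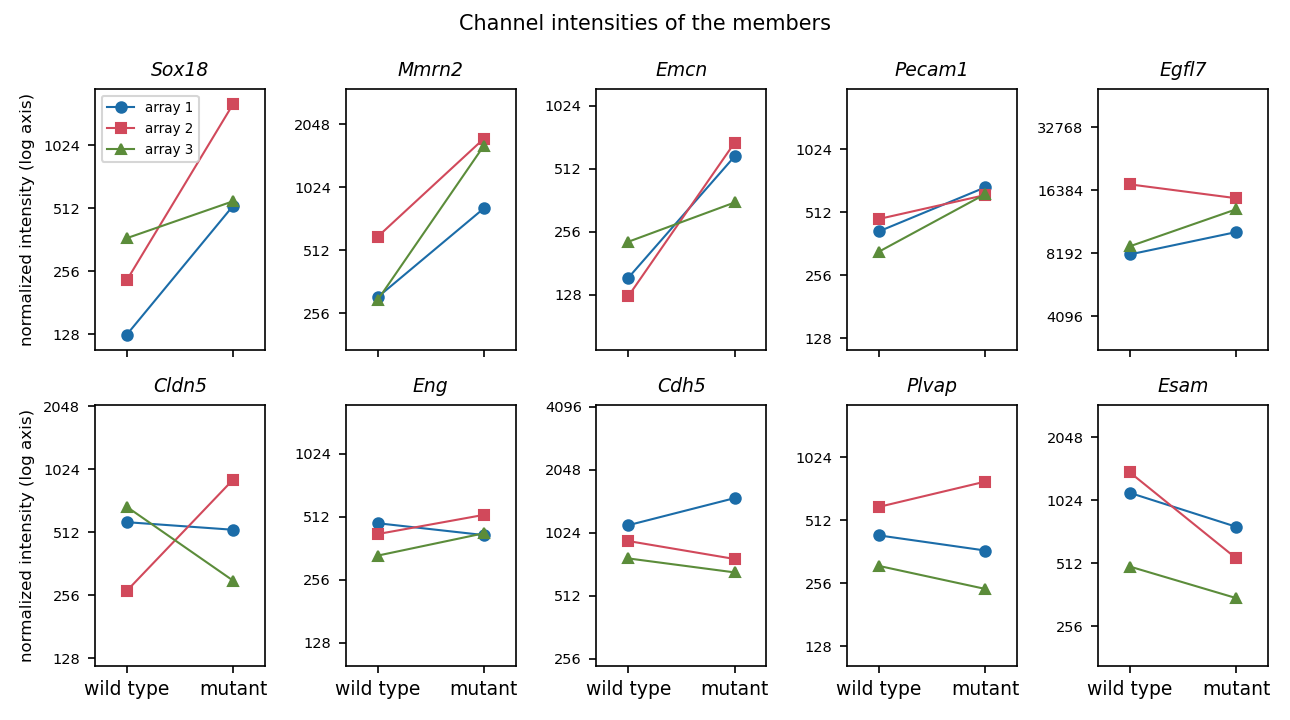
Normalized channel intensity (log axis, the same span of fold in each panel) of wild type and mutant for each member, with a line for each array. The mutant points lie above all wild-type points for Sox18, Mmrn2, Emcn and Pecam1. For Cldn5 the line rises on array 2 and falls on arrays 1 and 3.

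Esam, an immunoglobulin-family adhesion molecule of endothelial tight junctions and platelets, was the member with the lowest ratio. Esam was read on chromosome 9 at 37345795 to 37345854 (mm9). Mutant intensities were 767, 542 and 350 and wild-type intensities 1113, 1394 and 495 on arrays 1, 2 and 3. Within each array the mutant was dimmer, but the genotypes overlapped across arrays. The ratios of -0.54, -1.36 and -0.50 gave a mean of -0.80 ± 0.49, 1.74-fold lower (adjusted p = 0.189 in limma), with a 95% interval of -1.47 to -0.13.

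The central component of the endothelial adherens junction, VE-cadherin, is encoded by Cdh5, whose probe lies on chromosome 8 at 106668159 to 106668218 (mm9). The mutant read 1502, 769 and 663 units and the wild type 1115, 936 and 774. The mutant was brighter on array 1 and dimmer on arrays 2 and 3, and the genotypes overlapped. Its ratios were 0.43, -0.28 and -0.22, with a mean of -0.03 ± 0.40 (adjusted p = 0.968 in limma). The 95% interval, -0.63 to 0.58, allows a change in either direction, so equal expression was not shown.

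Cldn5, the main claudin of endothelial tight junctions, was the most variable member. Its probe lies on chromosome 16 at 18778046 to 18778105 (mm9). The mutant read 525, 912 and 300 units and the wild type 571, 268 and 676 on arrays 1, 2 and 3. The genotypes were nearly equal on array 1 and went in opposite directions on arrays 2 and 3. The ratios of -0.12, 1.77 and -1.17 gave a mean of 0.16 ± 1.49 and a 95% interval of -1.37 to 1.68. Since only array 2 has the mutant in Cy5, an effect of the dye and one of the replicate cannot be told apart. Without array 2 the mean was -0.65 and without array 3 it was 0.82, neither passing.

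Eng encodes endoglin, a co-receptor for BMP and TGF-beta ligands. Its probe lies on chromosome 2 at 32537268 to 32537327 (mm9). The mutant read 419, 524 and 428 units and the wild type 478, 424 and 334, which overlapped. The mean ratio was 0.16 ± 0.30 with a 95% interval of -0.39 to 0.71 (adjusted p = 0.738 in limma). Of the 14 measured partners of endoglin in that pathway, 1 rose, the inhibitory Smad6 at 1.68 ± 0.22 (adjusted p = 0.0436 in limma). The type I receptor gene Tgfbr1 was at 1.21 ± 0.23 and Smad9 at 1.74 ± 0.68, not passing. The partners' median was 0.83, and 10 of the 14 were higher on all arrays.

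Egfl7 encodes a secreted EGF-domain protein of the vessel matrix and carries the miR-126 hairpin in an intron. Its probe lies on chromosome 2 at 26448142 to 26448201 (mm9). The mutant read 10360, 15040 and 13310 units and the wild type 8101, 17510 and 8861. The mutant was brighter on arrays 1 and 3 and dimmer on array 2, and the genotypes overlapped. The mean ratio was 0.24 ± 0.41 (adjusted p = 0.638 in limma). Notch1, the receptor gene whose probe is 128702 bases away, read 3.61 ± 1.43 (adjusted p = 0.0585 in limma), and Agpat2, 468 bases away, read -0.05 ± 0.28.

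Plvap encodes the protein of the diaphragms that span fenestrae and caveolae. It was the only member with 2 probes, on chromosome 8 at 74030739 to 74030798 and at 74021877 to 74021936 (mm9, minus strand). The first and brighter probe, which stands for the gene, read 368, 786 and 241 units in the mutant and 434, 595 and 310 in wild type. The second read 424, 841 and 240 in the mutant and 322, 319 and 292 in wild type. Both overlapped between genotypes, and both had the brightest mutant sample on array 2. Their means had opposite signs, at -0.07 ± 0.41 and 0.50 ± 0.85, neither passing.

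Over the 10 members, 108 tested genes had probes within 250 kilobases. Their median ratio was -0.09, and BQ939345 near Sox18 was the only one called. Over the 39 tested genes on chromosome 2 from the first Dido1 probe to the end of the chromosome, the median was -0.26, with 2 called higher and none lower (limma; the group includes Dido1 and Sox18). The mutant was checked with 4 probes of Dido1, of which 2 rose, 1 fell and 1 did not pass in limma over all probes. They read 2.35 ± 0.40, 3.03 ± 0.34, -3.60 ± 0.17 and -0.54 ± 0.93. Which of these probes read the added construct was not tested.

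Other endothelial genes gave the members a setting. Of the 7 VEGF and TIE receptor genes, 4 rose: Flt1 at 3.06 ± 0.39 (8.32-fold, adjusted p = 0.0354 in limma), Nrp1 at 3.56 ± 0.75, Nrp2 at 1.84 ± 0.28 and Kdr at 2.27 ± 0.59. Their median was 1.84, beside 0.20 for the members; that difference was not tested. Of 28 measured other endothelial surface and secreted genes, 3 rose and 1 fell. The sialomucin Cd34 rose by 2.34 ± 0.29 (5.06-fold), the adhesion molecule Icam2 by 2.32 ± 0.65 and Ecscr by 1.61 ± 0.31. Thbd, thrombomodulin, fell by 3.05 on the log2 scale. The median of these 28 was 0.77, and 19 of them were higher on all arrays. Without array 1, or without array 3, 0 genes of either list passed in limma, as 0 did over all genes. Without array 2 there were 4 receptor genes and 11 surface genes that passed, and 5082 of all 19667 genes did. No gene of any list passed in limma with the local background not limited, with no filter on dim probes or with the authors' deposited values, where 0 genes passed over all.

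Of 12 measured endothelial transcription factor genes none passed, with 5 higher at an unadjusted p under 0.05 in limma and a median of 0.46. The ETS factor Fli1 was at 1.72 ± 0.47 (adjusted p = 0.0533 in limma), Nfatc1, an endocardial factor, at 1.10 ± 0.12 and Elk3 at 0.80 ± 0.17. Sox17 and Sox7, the SOXF relatives of Sox18, were at 0.50 ± 0.50 and -0.60 ± 0.61, so the 3 relatives had means of different size and sign. Of 11 measured arterial and venous genes none passed, with 3 higher and 1 lower at an unadjusted p under 0.05 and a median of 0.39. Notch1 had the smallest p of these, followed by Hey2 at 0.88 ± 0.37 and the arterial ligand Efnb2 at 0.72 ± 0.50.

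Junction genes, not all of them limited to endothelium, were read from 16 adherens and tight junction partners. None passed, with 4 higher and 1 lower at an unadjusted p under 0.05 in limma, and the median was 0.36. F11r, which encodes JAM-A, was at 1.21 ± 0.40 and the endothelial phosphatase gene Ptprb, whose product binds VE-cadherin, at 1.46 ± 0.57. The cadherin partners Ctnnb1, Ctnna1, Jup and Ctnnd1 were at 0.31 ± 0.76, 0.12 ± 0.24, 0.02 ± 0.23 and 0.58 ± 0.51.

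**Figure D3:**
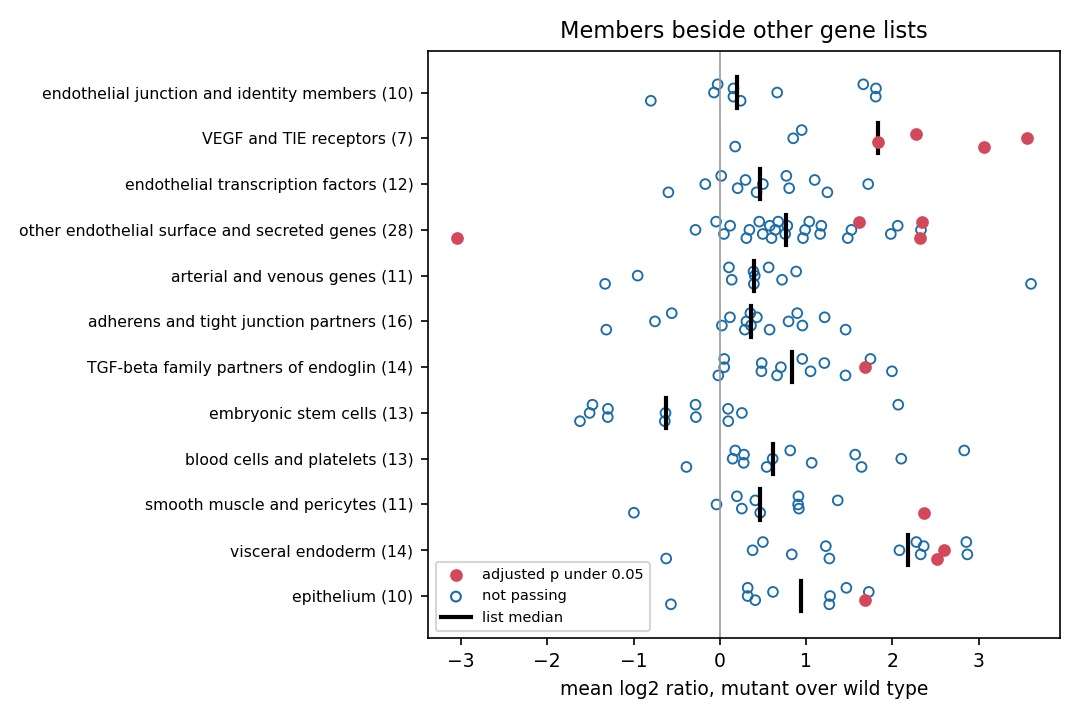
Mean log2 ratio of mutant over wild type (horizontal axis) for each measured gene of 12 lists, with the number measured in parentheses, list medians as bars and genes with an adjusted p under 0.05 in limma filled. The members, in the top row, have no filled point, and the VEGF and TIE receptors below them have 4 of 7.

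Markers of other cell types that could carry some of these genes were read beside them. Intensity summed over a list adds probes that are not comparable with one another, so the brightest weigh most. The members' own sums were 16540 to 23240 units in the mutant and 12680 to 22560 in wild type, which overlapped. Most of each sum was Egfl7, at 10360 to 15040 units in the mutant and 8101 to 17510 in wild type. The overlap therefore says little about the other members. How often the sums of other gene lists stay apart was not tested. The 13 measured embryonic stem cell markers had array medians of -1.79, -2.24 and 0.98, so their direction changed on array 3. On that array 5 of the 10 members had their highest ratio, against 28.6% of all genes. Pecam1 was among them, and so was Esam, still below 0 at -0.50. Another 4, Emcn and Sox18 among them, had their lowest there, for which no share of all genes was counted. A link between the members and the stem cell markers was not tested. The summed intensity of the stem cell markers was 27430 to 228900 in the mutant and 89360 to 245700 in wild type. None of them passed, with Tfcp2l1 at 2.07 ± 1.88, Dppa4 at -1.62 ± 1.79 and Pou5f1 at -1.51 ± 2.08, and 1 was at an unadjusted p under 0.05 in limma. Fgf4 was not measured.

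The 13 measured blood and platelet markers summed to 44290 to 88530 units in the mutant and 20240 to 27280 in wild type, which did not overlap. Their median ratio was 0.61 and none passed, with 6 at an unadjusted p under 0.05 in limma, all of them higher. Pf4 was at 2.83 ± 1.05, Itga2b at 1.57 ± 0.46 and Csf1r at 1.64 ± 0.68, while the leukocyte genes Ptprc and Spi1 and the platelet gene Gp1bb were not well above background often enough to be tested. The 11 smooth muscle and pericyte genes summed to 55170 to 60890 units against 21650 to 32330. Their median ratio was 0.47, and they ran from -0.996 to 2.36. At an unadjusted p under 0.05 in limma, 3 of them were higher and 0 lower. On all arrays 5 of the 11 were higher and 0 lower. Of these genes 1, Acta2, rose by 2.36 ± 0.14, while Rgs5 was at 1.37 ± 0.41 and Pdgfrb at 0.91 ± 0.39. The part of these cells in the member ratios was not tested.

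Visceral endoderm genes, 14 measured, summed to 434300 to 808400 units in the mutant and 107000 to 239700 in wild type, with a median ratio of 2.18. Their ratios ran from -0.62 to 2.87, with 9 higher and 1 lower at an unadjusted p under 0.05 in limma. The list medians on arrays 1, 2 and 3 were 2.988, 0.890 and 2.025. Of these genes 2 rose, Ttr at 2.59 ± 0.69 and Apoa4 at 2.52 ± 0.75, and Apoc2 was at 2.28 ± 0.70. The 10 epithelial genes summed to 203200 to 413000 units against 75980 to 134100, with a median of 0.94. They ran from -0.57 to 1.73, with 5 higher and 0 lower at an unadjusted p under 0.05 in limma. Krt19 rose by 1.69 ± 0.18, and Cldn6 was at 1.27 ± 0.13 and Krt18 at 1.73 ± 0.77. Their part in the member ratios was not tested either.

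The 3 other genes whose array ratios lay nearest to the members' medians of 0.39, 0.39 and 0.47 were Rad23b, E330037I15Rik and 2900076A13Rik, at Euclidean distances of 0.04, 0.05 and 0.05 log2 units over 3 arrays.

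The member ratios were recomputed under 15 other settings each. Sox18, Mmrn2, Emcn, Pecam1, Eng and Egfl7 were above 0 and Esam below 0 in all 15. Several of these outcomes were fixed in advance. For a member with 1 probe, changes of the dim-probe filter, the mean of probes and the separate-channel fit return the reported ratio. For Sox18, Mmrn2, Emcn, Pecam1 and Esam, with the same sign on every array, leaving out 1 array or adding a dye term cannot change the sign. The log2 ratio of Sox18 ran from 1.23 with the local background not limited to 2.42 without array 3. That of Emcn ran from 1.01 with the local background not limited to 2.40 with the log ratio of the scanner software, and was 1.28 without array 2 and 2.18 without array 3. That of Mmrn2 ran from 1.34 with the authors' deposited values to 2.00 without array 1. Cdh5, Plvap and Cldn5 changed sign in 4, 4 and 2 of them. The most members called under any setting was 4, with a dye effect as a term: Sox18, Mmrn2 and Emcn higher and Esam lower. With that term 2534 of the 19667 genes were called, against 325 as reported. That fit leaves no residual for array 2, so its spread comes from arrays 1 and 3 alone.

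**Figure D4:**
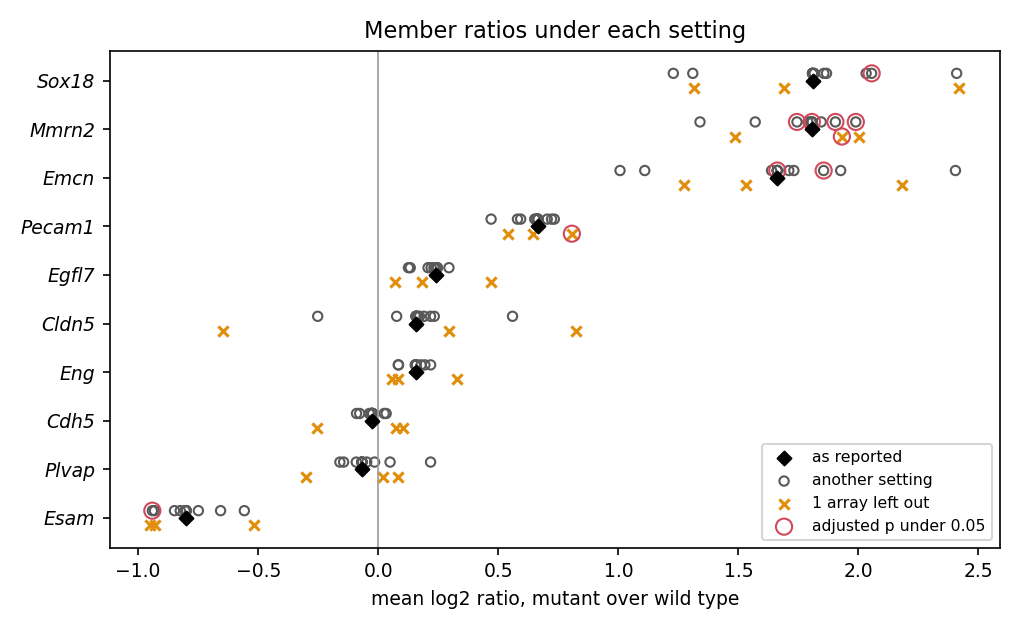
Mean log2 ratio of each member (horizontal axis) as reported and under each other setting, with crosses for fits without 1 array and rings where the adjusted p was under 0.05 in limma. Rings occur for Mmrn2 under 5 settings, for Emcn under 2 and for Sox18, Pecam1 and Esam under 1 each.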

How the data were processed

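Per the labels' protocols, Cy3- and Cy5-labelled amplified RNA of the 2 genotypes shared each Agilent mouse array. The deposited scanner files hold spot and background intensity and log10 ratios (red over green), which per the file headers come from Feature Extraction 10.7.3.1; probe coordinates are mm9. A further table deposited by the authors holds log2 ratios, with limma named in the submitters' processing notes; against the scanner ratios of 10742 bright spots its slopes were 0.910, 0.932 and 0.974, in the direction of mutant over wild type, its medians were -0.01, 0.02 and -0.01, and its centring step is unknown. All its columns were used.

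In R 4.3.3 with limma 3.58.1, intensities were corrected with normexp (offset 50), with the local background limited to 100 units because 25 spots of array 2 exceeded it, reaching 75739, while the highest on the other arrays was 60. Each array was then loess-normalized (control spots weighted 0) and outlier spots were dropped. Of 39429 probes, 25496 were kept, those well above background on all 3 arrays for the mutant or for the wild type, and the brightest stood for a gene. Ratios were turned as mutant over wild type by the labelled dyes. The test against 0 was limma's (lmFit, eBayes), two-sided, and Benjamini-Hochberg adjusted p-values were called at 0.05. The tests were checked on simulated data with the same spread for every gene and no effect of dye or array. That check leaves out the difference between array 2 and the other arrays given below. Channel intensities were scaled with Aquantile; intervals are 95% intervals of the moderated fit. Median spot intensity was 150 to 288 units and no spot was saturated. Across genes, the ratios of arrays 1 and 3 correlated at 0.794 and those of array 2 with them at 0.377 and 0.193; the number of arrays limits the precision. Whether the replicates of a genotype came from separate clones is not given in the sources used here, so p-values measure the spread between these samples.

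The members, lists and settings were chosen with earlier results of these data known. The text names every member, up to 3 genes of each list with the smallest p, Kdr and Flt1, the Dido1 probes, and the 3 genes nearest the members' median profile; list genes outside that rule (Ecscr, Sox7, Sox17, Ctnnb1, Ctnna1 and Jup, those not tested, and the neighbours Tcea2 and Agpat2) were chosen after their values were seen, and 1 gene that the rule names is not reported here. Promoter sequences are RefSeq's (GRCm38.p6).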

Additional observations from a re-analysis of the deposited data

How the results depend on the processing

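Of the 10 members 0 passed as reported. One member, Mmrn2, passed with a normexp offset of 16, with the scanner software's log ratio and at a threshold of 0.1 (1 in each), 2 in the separate-channel fit without a replicate block, 4 with a dye term, and 0 to 2 with 1 array left out. The number of genes passing over all, 325 as reported, was 0 with the local background not limited (smallest adjusted p 0.168 in limma, 3015 genes at an unadjusted p under 0.05), 0 with no filter on dim probes (4857 unadjusted) and 0 with the authors' deposited values (3838 unadjusted). It was 732 with an offset of 16, 769 with the scanner's log ratio, 1352 at a threshold of 0.1, 1310 in the separate-channel fit and 2534 with a dye term. It ranged from 0 to 5082 with 1 array left out; without array 2 it was 5082, with the mutant in Cy3 on both arrays, and without array 1 or array 3 it was 0 (1659 and 2370 unadjusted). The members' median, 0.20 as reported, was 0.26 with median centring, 0.38 with a dye term, 0.11 with the authors' values and 0.29 to 0.31 with 1 array left out. Cdh5 changed sign to 0.033 without the background limit, 0.025 with median centring, and ranged from -0.25 to 0.10 with 1 array left out. Plvap did so at 0.22 with the mean of its probes and 0.049 with a dye term, and Cldn5 at -0.25 without the background limit. With 1 array left out, Plvap ranged from -0.30 to 0.080 and Cldn5 from -0.65 to 0.82. The causes were not tested. Each array pairs 1 mutant with 1 wild-type RNA, so the reported fit is paired; the separate-channel fit has no replicate block and takes that pairing in as a spot correlation of 0.286. All member probes were well above background, so brightness did not limit which members could be read. The size of some ratios still moved with the background step. With an offset of 16 and with the scanner's log ratio, Sox18 was 2.03 and 2.41, Emcn 1.93 and 2.40, and Mmrn2 1.90 and 1.99. Before correction the dimmest wild-type signals of Sox18 and Emcn were 89.37 and 113.5 units, with local backgrounds up to 43 and 40. Whether dimness set these sizes was not tested.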
